A study of Trachinotus ovatus with 6 samples.

Results

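A set of 177 genes, of the 22062 in the table, was abundant in both the ovary and the testis of golden pompano, Trachinotus ovatus, a sea fish of the teleosts. A gene entered the set when it stood at 100 FPKM or more in each of 6 libraries and when the ratio of its ovary mean to its testis mean lay above 0.1 and under 10. The members were selected on these deposited values. FPKM divides the fragments of a gene by the length of its model in kilobases and by the size of the library in units of 1000000 fragments. The study sequenced total RNA from the ovaries of 3 females and the testes of 3 males, each gonad from a different fish, and its title names the Sox gene family as the subject. Tissue is the only difference the labels give between the groups, apart from the sex of the fish and a code for each gonad, and no age, strain or stage of maturity is given. The genome build is not given in the sources used here, and each gene is listed by identifier and position alone. No member could therefore be assigned a function, and neither gonad could be checked against its marker genes.

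An ovary is made up of oocytes at several stages, which store RNA and protein for the embryo, and of the follicle cells around them. A testis holds germ cells on their way to sperm together with Sertoli cells, which nurse them, and Leydig cells, which make androgens. Transcripts that are abundant in unlike tissues commonly encode parts of the ribosome, translation factors, enzymes of energy metabolism and the cytoskeleton, and such genes are often called housekeeping genes. Whether the members belong to these classes cannot be read from the table.

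The rule used all 6 values of every gene and the ratio of the gonad means, so levels and differences between ovary and testis of the members are descriptions here. Calls from a fit across the whole table are counted once, beside the share called over all tested genes, and nothing is read from them. In bulk tissue, fewer cells of a type and less RNA per cell cannot be told apart. The 3 ovary libraries summed to 658899 to 796856 FPKM and the 3 testis libraries to 485022 to 490967 FPKM, and read depth is unknown. Over all genes with values above 0 in every library, ovary 1 was the lowest of the ovaries for 12579 of 16381 tested genes, so it stood apart from the other ovaries across the table. On FPKM as deposited, members did not follow this: ovary 1 was the highest ovary for 103 of 177. Ovary 1 also had the largest sum, 796856 FPKM, and the rule keeps out genes that are low in it. The order of the ovaries was not counted on other scales.

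The members were 0.802% of the genes and held 25.01% to 36.3% of the summed FPKM of each library. Their share was 36.3%, 28.8% and 31.6% in ovaries 1, 2 and 3, and 26.5%, 26.3% and 25.01% in testes 1, 2 and 3. The mean was 32.2% ± 3.82 in ovaries and 25.9% ± 0.799 in testes (n = 3 fish each, ± SD), and every ovary lay above every testis. The median member stood at 506 ± 14.1 FPKM in ovary and 476 ± 20.4 FPKM in testis (n = 3 fish each, ± SD). The median gene of the table stood at 0.711 FPKM in ovary and 5.64 FPKM in testis, averaged over the 3 fish. On this scale the middle of the member set was therefore nearly level between gonads, while the middle of the table was lower in ovary. The rule asks for 100 FPKM in every library of both gonads, so the contrast with the table is largely fixed by it. The direction between gonads changed on other scales, described below.

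The excess in ovary lay in the few highest members. The 10 highest members of each library held 50.6% ± 6.23 of the members' summed FPKM in ovaries and 26.9% ± 4.64 in testes (n = 3 fish each, ± SD). A mean of 2000 FPKM or more was reached by 19 members in ovary and by 5 in testis, and all 19 were higher in ovary. The 19 were picked by their ovary mean, which favours that direction, and the ovary libraries had the larger sums. In both gonads, 21 members had a mean of 1000 FPKM or more.

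Of the genes at 100 FPKM or more in every ovary, 490 in number, the members made up 36.1%. Of the 323 genes at that level in every testis they made up 54.8%. They filled 49 to 51 of the 100 highest places in the ovary libraries and 83 to 85 of the 100 highest places in the testis libraries. The 100th place stood at 937 ± 44.1 FPKM in ovaries and at 536 ± 41.7 FPKM in testes (n = 3 fish each, ± SD), so a floor of 100 FPKM reaches further down the list of abundant genes in ovary.

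The limits left out few genes. At 100 FPKM or more in all 6 libraries there were 183 genes, of which the ratio excluded 6, with 4 at an ovary to testis ratio of 10 or more and 2 at 0.1 or less. Just outside the upper limit, SCSFRI_TO_T_00025873 on linkage group 9 (14839898 to 14840206) had a ratio of 10.1. Just inside it, SCSFRI_TO_T_00036117 had a ratio of 9.40. At the lower end there was a wide gap: the lowest member ratio was 0.288, and the nearest gene outside, SCSFRI_TO_T_00012023 on linkage group 6 (8497848 to 8675729), reached 0.0476. That gene averaged 3305 FPKM in ovary and 69484 FPKM in testis. With all 183 genes counted, the share was 38.0% in ovaries and 42.0% in testes, so the order of the gonads by share turns on the genes that the ratio excludes.

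At the floor of 100 FPKM the lowest members were SCSFRI_TO_T_00017575 on linkage group 19 (12464479 to 12464628), at 100.2 FPKM in testis 1, SCSFRI_TO_T_00128722 on linkage group 17 (18970966 to 18972860), at 100.6 FPKM in testis 1, and SCSFRI_TO_T_00141081 on linkage group 10 (26496529 to 26502955), at 101.4 FPKM in testis 1. All 3 had their lowest value in testis 1. Just under the floor, SCSFRI_TO_T_00089828 on linkage group 24 (3023065 to 3031113) fell short in ovary 3 with 99.9 FPKM, SCSFRI_TO_T_00092615 on linkage group 16 (5913208 to 5914598) in testis 1 with 99.8 FPKM, and SCSFRI_TO_T_00085621 on linkage group 10 (8831806 to 8838972) in ovary 1 with 98.7 FPKM.

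The rank order of the members was kept in part between gonads. Spearman's rho between ovary means and testis means was 0.70 across the 177 genes, and Pearson's r of the log2 means was 0.72. Single libraries of unlike gonads gave rho of 0.614 (ovary 1 with testis 1) to 0.744 (ovary 2 with testis 2). Libraries of the same gonad gave 0.968 to 0.988 between ovaries and 0.918 to 0.972 between testes. Every pair within a gonad was thus ranked more alike than any pair across gonads. All values share the floor of 100 FPKM and the limits on the ratio, which narrow the range that the ranks cover, and genes are not independent. Across the 17206 genes tested in the whole table, rho between the gonad means was 0.525.

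Shared places were also counted at the ends and in the middle of the ranking. Counted from the highest mean, 6 of the 10 highest members in ovary were among the 10 highest in testis, 10 of the 20 highest and 28 of the 50 highest. The 6 include SCSFRI_TO_T_00039028 and SCSFRI_TO_T_00038882, whose spans overlap. They also include SCSFRI_TO_T_00000774 and SCSFRI_TO_T_00138017, whose spans overlap as well. Overlapping models can share reads, so the 6 are not all separate measurements. With the members cut into 4 equal parts by rank in each gonad, 76 fell in the same part in both, 89 moved by 1 part and 12 moved by 2 or 3 parts. The highest part of ovary, 45 members, shared 24 with the highest part of testis, and 23 members were in the lowest part of both. Of the 88 members in the middle parts of ovary, 29 were in the same part in testis. An end part borders on 1 other part and a middle part on 2. Ranks kept in part therefore favour agreement at the ends by construction, and nothing is read from that contrast. The median member differed by 29 places. The largest gain of places in ovary was 119, by SCSFRI_TO_T_00133497, at place 51 in ovary and 170 in testis. The largest gain in testis was 85, by SCSFRI_TO_T_00134784, at place 112 in ovary and 27 in testis.

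**Figure D1:**
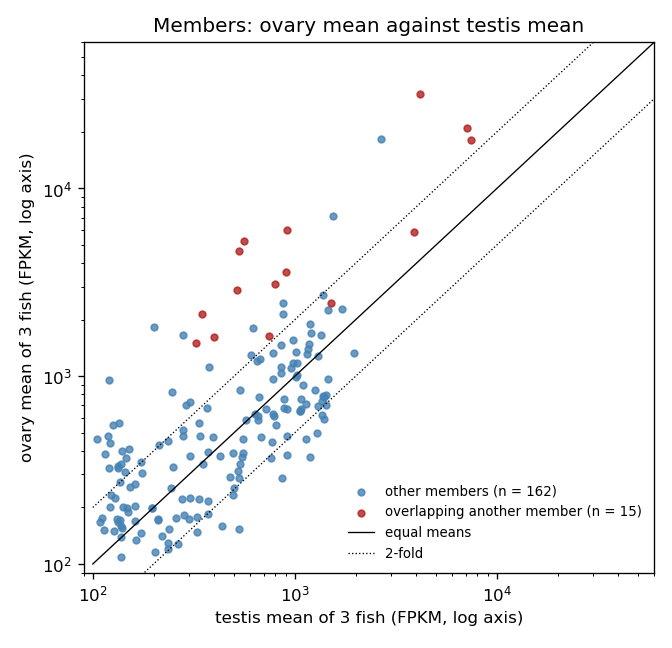
Mean FPKM over 3 ovaries (vertical, log axis) against the mean over 3 testes (horizontal, log axis) for the 177 members, with lines at equal means and at a 2-fold difference; red points are the 15 members whose span overlaps that of another member. Most points lie near the line of equal means, 119 of 177 within the 2-fold lines, and all 15 red points lie above equal means, towards ovary.

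By ratio of means, 103 members were higher in ovary and 74 higher in testis, and the median ratio of ovary to testis was 1.19, a log2 ratio of 0.26. The middle 50% of members had log2 ratios from -0.56 to 0.95. Within a 2-fold difference there were 119 members (67.2%), and within 1.5-fold 69. On the scale as deposited, the ovary side reached further than the testis side. By 2-fold or more, 43 members were higher in ovary and 15 higher in testis. The ovary libraries had the larger sums, and counts by fold were not made on other scales. A ratio of 5 or more was reached by 10 members on the ovary side, where the highest was 9.40. Only 4 of these 10 overlapped no other member, and overlapping models can share reads. On the testis side 3 members reached 3-fold, and the highest stood at 3.48-fold, testis over ovary.

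Among all 17206 tested genes, 21.5% had the higher mean in ovary, and the median log2 ratio of ovary to testis was -2.15 over the 17081 of them with a finite ratio. All 177 members lay above that median. The rule bears on this comparison, since it keeps out every gene that is low in ovary.

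The direction of bias depended on the scale. On FPKM as deposited 103 members were higher in ovary and 74 higher in testis. With each library rescaled to the same sum (TPM), 67 were higher in ovary and 110 higher in testis, with a median log2 ratio of -0.33. After quantile normalization, which gives every library the same distribution of values, the counts were 49 and 128, and the median was -0.72. After median ratio scaling, which centres libraries on the typical gene above 0 in all of them, all 177 were higher in ovary, with a median of 2.55. The median ratio factors of the ovaries were -1.67, -0.58 and -0.96 on the log2 scale, against 1.15, 1.02 and 1.14 in the testes. Under this scaling the members are read relative to a table whose typical gene is lower in ovary. By construction, none of these scalings reorders the members within a library.

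**Figure D2:**
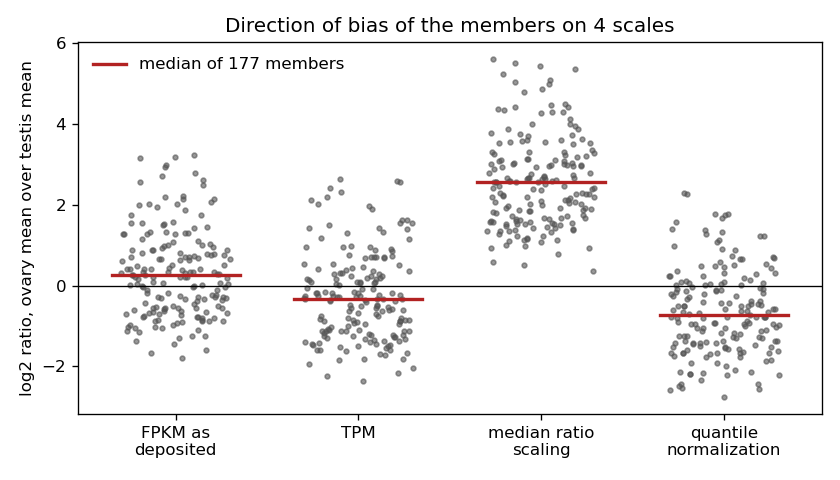
Log2 ratio of ovary mean to testis mean (vertical) of each of the 177 members on 4 scales of the same values, 1 point per gene with random sideways spread, and the median as a red line. The medians stand at 0.26 with FPKM as deposited, -0.33 with TPM, 2.55 with median ratio scaling and -0.72 with quantile normalization.

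On FPKM as deposited, every ovary lay above every testis for 79 members and every testis above every ovary for 55. For the other 43 the fish of the gonads overlapped, with log2 ratios between -0.81 and 0.70. Among all tested genes, 14.1% had every ovary above every testis and 69.8% had every testis above every ovary. In the limma fit across all tested genes, on log2(FPKM + 1) with Benjamini-Hochberg adjustment, 118 members passed an adjusted p of 0.05, with 68 higher in ovary and 50 higher in testis. Of all tested genes, 81.6% passed, with 13.4% higher in ovary and 68.2% higher in testis. The rule used this contrast, so nothing is read from the counts of members. With TPM, 41 members were called higher in ovary and 81 higher in testis, beside 8.19% and 74.9% of all tested genes. With median ratio scaling the members called were 171 and 0, beside 40.8% and 43.2%. After quantile normalization they were 26 and 106, beside 34.4% and 39.9%.

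Bias also differed along the range of abundance. With members cut into 4 parts by the geometric mean of the gonad means, the lowest part (122 to 228 FPKM) had 30 of 45 higher in ovary and a median ratio of 1.24. The second part had 24 of 44 and 1.13. The third part (498 to 997 FPKM) had 16 of 44 higher in ovary, with a median ratio of 0.828. The highest part, from 1001 FPKM upward, had 33 of 44 higher in ovary and a median ratio of 1.54. Most of the 15 members that overlap another member fall in this highest part. All 15 were higher in ovary, and their values are not separate measurements, as described below. The third part was thus the only one of the 4 in which most members were higher in testis on this scale.

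Among members, a short series of loci led in both gonads. Genes that the ratio excluded also stood high. SCSFRI_TO_T_00012023, at a mean of 69484 FPKM in testis, was above every member there. SCSFRI_TO_T_00025873, at a mean of 29281 FPKM in ovary, was above every member but SCSFRI_TO_T_00000774. SCSFRI_TO_T_00000774, on linkage group 16 (14746782 to 14800512), reached 46785, 9122 and 40010 FPKM in ovaries 1, 2 and 3, and 2660, 5819 and 4017 FPKM in testes 1, 2 and 3. It ranked at place 1 among members in ovary and place 3 in testis, and no ovary overlapped a testis, although ovary 2 was far below the other ovaries. SCSFRI_TO_T_00039028 and SCSFRI_TO_T_00038882, whose spans overlap on linkage group 13 (17958283 to 18220829 and 18104176 to 18220858), took the second and the fourth place in ovary and the second and the first place in testis. The first of this pair had 31030, 16580 and 15081 FPKM in the ovaries and 6801, 8487 and 6071 FPKM in the testes. The second had 22773, 16686 and 14880 FPKM in the ovaries and 6893, 8392 and 7167 FPKM in the testes. Both were highest in ovary 1 and in testis 2 within their gonads, and reads could have been divided between the models.

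Short loci were among the most abundant as well. SCSFRI_TO_T_00135691, 246 bp long on linkage group 12 (19037223 to 19037468), reached 20606, 14052 and 20565 FPKM in the ovaries and 1751, 3894 and 2327 FPKM in the testes. SCSFRI_TO_T_00036146, 258 bp long on linkage group 21 (3609018 to 3609275), reached 8449, 6735 and 6111 FPKM in the ovaries and 1493, 1564 and 1573 FPKM in the testes. The testes were nearly level for this gene, and the ratio of ovary to testis was 4.60. SCSFRI_TO_T_00138017, on linkage group 16 (14763267 to 14810312), completed the 5 highest of testis with 7553, 4485 and 5623 FPKM in the ovaries and 2370, 5473 and 3775 FPKM in the testes. Here ovary 2 lay below testis 2, so the fish overlapped and the ratio of 1.52 was within their spread.

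Toward ovary, the highest ratio belonged to SCSFRI_TO_T_00036117 on linkage group 21 (3957782 to 3962973), with 7320, 3626 and 4886 FPKM in the ovaries and 337, 706 and 643 FPKM in the testes. SCSFRI_TO_T_00025003 on linkage group 11 (27902930 to 28019651) followed with 2230, 1647 and 1582 FPKM in the ovaries and 192, 209 and 201 FPKM in the testes, a ratio of 9.07. The testes differed little for this gene, and the ovaries lay far above them. SCSFRI_TO_T_00042146 on linkage group 9 (14837450 to 14837671) showed 5501, 4183 and 4301 FPKM in the ovaries and 381, 773 and 426 FPKM in the testes, a ratio of 8.85. SCSFRI_TO_T_00133497 on linkage group 16 (6433268 to 6447318) showed 911, 904 and 1046 FPKM in the ovaries and 126, 117 and 117 FPKM in the testes, a ratio of 7.93. Of these 4 it is the only one whose span overlaps that of no other gene, and it was steady between fish in both gonads. SCSFRI_TO_T_00000774, described above, came next with a ratio of 7.68.

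Toward testis, the lowest ratio was 0.288, for SCSFRI_TO_T_00006614 on linkage group 8 (28012122 to 28017150), with 114, 161 and 184 FPKM in the ovaries and 568, 512 and 515 FPKM in the testes. SCSFRI_TO_T_00134784, also on linkage group 8 (23442617 to 23446677), reached 295, 428 and 392 FPKM in the ovaries and 1442, 1026 and 1098 FPKM in the testes, a ratio of 0.313. In both, ovary 1 was the lowest ovary and testis 1 the highest testis. SCSFRI_TO_T_00001619 on linkage group 3 (23055564 to 23064123) showed 248, 325 and 286 FPKM in the ovaries and 744, 1066 and 778 FPKM in the testes, a ratio of 0.332. SCSFRI_TO_T_00015903 on linkage group 18 (2956196 to 2960406) showed 171, 161 and 148 FPKM in the ovaries and 240, 670 and 405 FPKM in the testes, a ratio of 0.365. Its testes varied widely while its ovaries were level. SCSFRI_TO_T_00084365 on linkage group 24 (4546292 to 4548816) showed 547, 466 and 480 FPKM in the ovaries and 1550, 1054 and 1240 FPKM in the testes, a ratio of 0.388. For each of these 5 genes no ovary overlapped a testis, and median ratio scaling turned the direction of all 5. Picking by the ratio favours such a gap, and 69.8% of all tested genes had every testis above every ovary.

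**Figure D3:**
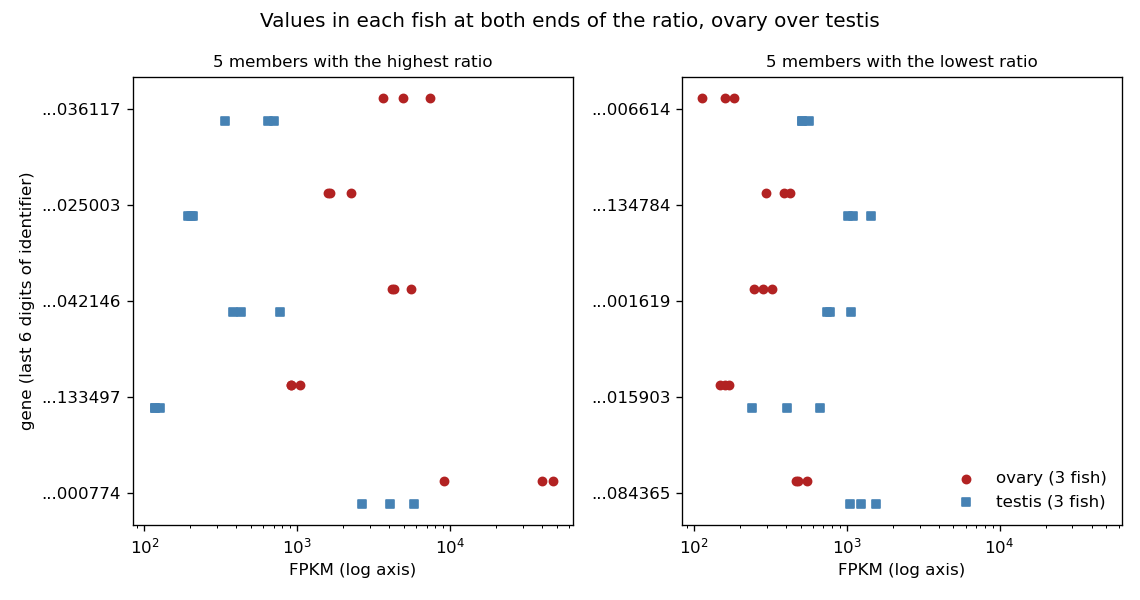
FPKM in each of 3 ovaries (red circles) and 3 testes (blue squares), on a log axis, for the 5 members with the highest ratio of ovary mean to testis mean (left) and the 5 with the lowest (right), named by the last digits of their identifiers. In all 10 genes the fish of the gonads do not overlap, and the distance between the gonads is larger on the left, with ratios of 7.68 to 9.40, than on the right. The genes were picked by this ratio, so nothing is read from either feature. Of all tested genes, 14.1% had every ovary above every testis and 69.8% had every testis above every ovary.

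The most even members came close to equal means at different levels. SCSFRI_TO_T_00121257 on linkage group 13 (6990921 to 6997084) showed 561, 651 and 668 FPKM in the ovaries and 709, 604 and 585 FPKM in the testes, a ratio of 0.991. SCSFRI_TO_T_00058931 on linkage group 2 (31576150 to 31580846) showed 142, 137 and 138 FPKM in the ovaries and 156, 125 and 133 FPKM in the testes, a ratio of 1.01. SCSFRI_TO_T_00045379 on linkage group 1 (2386173 to 2399451) showed 134, 229 and 229 FPKM in the ovaries and 217, 169 and 202 FPKM in the testes, a ratio of 1.01. The last of these was even only on average, as ovary 1 was well below the other ovaries. Evenness here belongs to the scale as deposited, since any rescaling that shifts the median moves these genes as well.

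On FPKM as deposited, most members were steady between fish. The median SD of log2 FPKM over the 3 fish was 0.17 in ovaries and 0.20 in testes. After median ratio scaling it was 0.637 in ovaries and 0.17 in testes, so steadiness among ovaries depended on the scale. With TPM it was 0.18 and 0.19, and after quantile normalization 0.14 and 0.21, in ovaries and testes. The values below are as deposited. With the rule applied without ovary 1 (187 genes), the median over the remaining ovaries was 0.09. It was 0.15 without ovary 2 and 0.21 without ovary 3. Without testis 1 (182 genes), the median over the remaining testes was 0.12, against 0.17 without testis 2 and 0.27 without testis 3. In each gonad it was thus smallest without fish 1. These SDs rest on fewer fish and on other sets of genes, so they are not set against those over 3 fish. The highest fish stood less than 1.5-fold above the lowest for 145 of 177 members in ovaries and for 139 in testes, and for 120 members in both. A 2-fold range or more was seen for 10 members in ovaries and 14 in testes. Over all 6 libraries together, 25 members stayed within a 1.5-fold range and 72 within a 2-fold range. Genes at 100 FPKM or more in every fish of a gonad that were not members had a median SD of 0.19 in ovaries (313 genes) and 0.22 in testes (146 genes). The floor in every library favours steady genes in both sets, and the difference was not tested.

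On FPKM as deposited, the steadiest members were level within each gonad and unequal between gonads. SCSFRI_TO_T_00017055 on linkage group 19 (8066179 to 8070043) showed 487, 478 and 472 FPKM in the ovaries and 121, 118 and 119 FPKM in the testes, a ratio of 4.02. SCSFRI_TO_T_00140001 on linkage group 14 (23531423 to 23534008) showed 716, 720 and 759 FPKM in the ovaries and 302, 303 and 304 FPKM in the testes, a ratio of 2.41. SCSFRI_TO_T_00120219 on linkage group 1 (28081535 to 28085154) showed 284, 259 and 273 FPKM in the ovaries and 132, 143 and 133 FPKM in the testes, a ratio of 2.004. In each of the 3 the distance between gonads was far larger than the range among fish. Low spread between fish did not go with equal levels in the gonads for these genes.

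The 3 most variable members each overlapped another member, while the variable SCSFRI_TO_T_00015903, described above, overlapped no gene. SCSFRI_TO_T_00000774 had the largest SD of log2 FPKM, in ovaries, where its highest fish was 5.13 times its lowest. SCSFRI_TO_T_00038140 on linkage group 21 (1607744 to 1622613) showed 2325, 1453 and 1053 FPKM in the ovaries and 169, 572 and 451 FPKM in the testes. SCSFRI_TO_T_00036145 on linkage group 21 (3960555 to 3960963) showed 2413, 1212 and 1302 FPKM in the ovaries and 383, 1076 and 772 FPKM in the testes. All 3 were highest in ovary 1 and in testis 2, and all 3 were lowest in testis 1.

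As a group, 15 members in 5 places, each overlapping another member, stood apart from the other 162 in level, bias and spread. Some of the 162 shared parts of this pattern, as given below. They were singled out after their values were seen, so no test is given. All 15 were higher in ovary, with a median ratio of 4.05 (1.52 to 9.40), and 12 of them were among the 19 members at 2000 FPKM or more in ovary. The other 162 split into 88 higher in ovary and 74 higher in testis, with a median ratio of 1.09, and 117 of them lay within 2-fold. The 15 held 19.4%, 11.2% and 14.5% of the summed FPKM in ovaries 1, 2 and 3, and 4.78%, 7.93% and 5.89% in testes 1, 2 and 3. The 162 held a mean of 17.2% ± 0.300 of the ovary sums and 19.7% ± 1.77 of the testis sums (n = 3 fish each, ± SD). Without the 15, the gonads thus changed order, with every ovary below every testis in the share held.

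**Figure D4:**
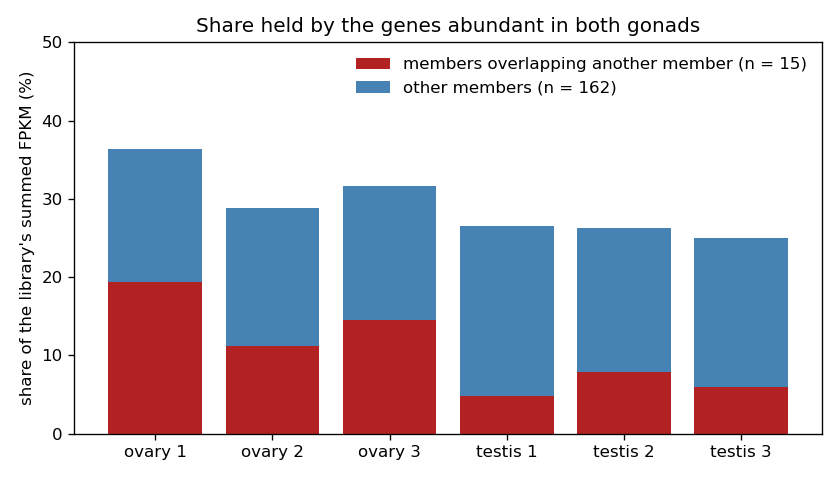
Share of each library's summed FPKM, in percent, held by the 15 members that overlap another member (red) and by the other 162 (blue), for 3 ovaries and 3 testes. The red part runs from 11.2% to 19.4% in ovaries and from 4.78% to 7.93% in testes, while the blue part is 17.0% to 17.5% in ovaries and 18.3% to 21.7% in testes.

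The 15 members also stood high or low in the same fish. Ovary 1 was the highest ovary for 14 of the 15 and testis 2 the highest testis for all 15, while testis 1 was the lowest testis for 13. Among the other 162, testis 1 was the highest testis for 120 and testis 2 the lowest for 115, the opposite order. Ovary 1 was the highest ovary for 89 of the 162 as well. Testis 2 was the highest testis for 28 of them, among these SCSFRI_TO_T_00135691, described above, and SCSFRI_TO_T_00112419, which overlaps no gene. The latter had 2821, 2218 and 2311 FPKM in ovaries 1, 2 and 3, and 569, 1239 and 813 FPKM in testes 1, 2 and 3. The median of the 15 stood at -0.60 in testis 1 and 0.47 in testis 2, as log2 of the value over the testis mean, against 0.17 and -0.14 for the 162. In ovaries the medians of the 15 were 0.47, -0.33 and -0.15 in ovaries 1, 2 and 3, against 0.05, -0.05 and -0.01 for the 162. The median SD of log2 FPKM was 0.50 in ovaries and 0.57 in testes for the 15, against 0.15 in ovaries and 0.19 in testes for the 162. Overlapping models can share reads, so these 15 values are not 15 separate measurements, and the part of such sharing in the pattern was not tested.

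**Figure D5:**
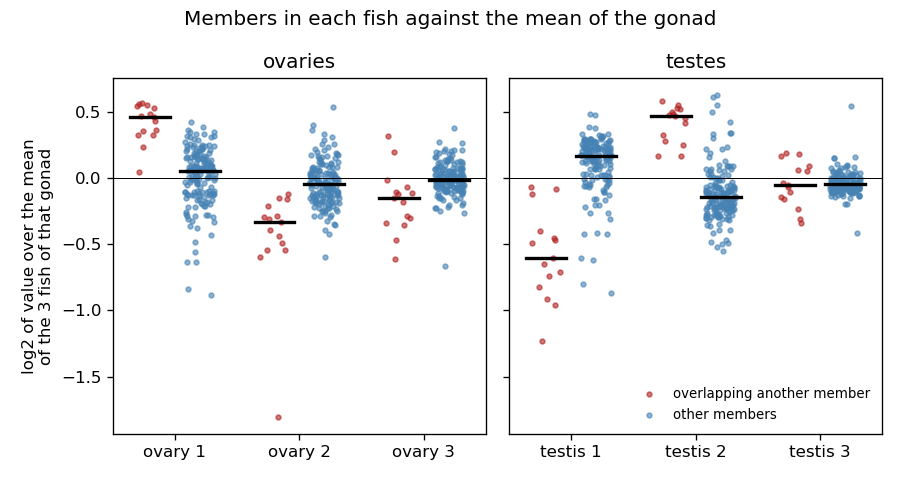
Log2 of each member's FPKM in a fish over the mean of the 3 fish of that gonad, for ovaries (left) and testes (right); red points are the 15 members that overlap another member, blue points the other 162, and black lines the medians. Red medians stand at 0.47 in ovary 1 and in testis 2 and at -0.60 in testis 1, while blue medians stay between -0.14 and 0.17.

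The 5 places were on linkage groups 9, 13, 16 and 21. The place on linkage group 9 (14837393 to 14911643) held 5 members with ratios of 4.63 to 8.85 and touched 14 genes of the table in all, among them SCSFRI_TO_T_00025873, which the ratio limit left out. Its members held 2.68%, 2.16% and 2.18% of the summed FPKM of ovaries 1, 2 and 3, and 0.404%, 0.757% and 0.460% in testes 1, 2 and 3. The place on linkage group 16 (14746782 to 14810312) held 3 members with 7.27%, 2.33% and 6.50% in the ovaries and 1.20%, 2.75% and 1.93% in the testes. Here ovary 2 lay below testis 2 in share, and the other ovaries lay above every testis. The place on linkage group 13 (17958283 to 18220858) held 2 members with 6.75%, 5.05% and 4.09% in the ovaries and 2.79%, 3.47% and 2.73% in the testes. Linkage group 21 held the other places (1607718 to 1622613 and 3957782 to 3964506) with 2 and 3 members.

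Members lay on all 24 linkage groups and none lay outside them. They made up 0.274% of the genes on linkage group 20 (2 of 729) and 1.84% on linkage group 21 (13 of 706), with 1.77% on linkage group 16 (15 of 848). Of the 15 on linkage group 16, 7 were higher in ovary and 3 belonged to the overlapping place described above, and their median ratio was 0.981. Of the 13 on linkage group 21, 9 were higher in ovary and 5 belonged to overlapping places, with a median ratio of 1.35. These shares were not tested.

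Members had short spans. The span, from the start to the end of a locus with its introns, had a median of 3671 bp in members, with the middle 50% from 2610 to 5803 bp, against 9505 bp over all genes. Genes at 100 FPKM or more in every fish of a single gonad, or outside the limits on the ratio, also had short spans, with medians of 4896 bp for ovary and 5530 bp for testis. A span of 20000 bp or more was found in 8 members, and 3 of these reached 100000 bp. Spans under 1000 bp made up 9 members (5.08%), against 3.73% of all genes, and all 9 were higher in ovary, with a median ratio of 4.41. Of these 9, 8 overlapped another gene and 4 overlapped another member. The other 168 members had a median ratio of 1.15, with 94 higher in ovary. FPKM divides by gene length, so short models carry larger values per fragment, and how the lengths were set is not given. This concerns the levels, since a length shared by all libraries cancels in the ratio of the gonads. The direction of all genes with such short spans is not given here, and the cause of the bias was not tested.

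The span overlapped that of no other gene for 118 members (66.7%), against 60.4% of all genes, and 38 members lay wholly within the span of another gene. Among these 118, the median log2 ratio was 0.04 and rho between gonads was 0.71. They held 10.7% of the ovary sums and 15.2% of the testis sums, as means over 3 fish. For members free of overlap, the share in ovary was thus below that in testis, the reverse of the whole set.

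Every member meets the floor in each library, so leaving out a library can remove a member only through the limits on the ratio. That most members stayed is thus largely fixed by the rule, and those that left were near the upper limit of the ratio. With the rule applied without 1 of the libraries, 175 to 187 genes qualified, and 175 to 177 of the 177 members stayed. Without ovary 2, SCSFRI_TO_T_00000774, the highest member in ovary, had a ratio of 10.4 and left the set, and SCSFRI_TO_T_00036117, the member with the highest ratio, left with 10.9. The mean ovary share was then 27.5%, although ovary 2 had the lowest share of the ovaries. SCSFRI_TO_T_00036117 also left without testis 2 (10.8) and without testis 3 (10.1), and SCSFRI_TO_T_00042146 left without testis 2 (11.5). Without ovary 1, the 187 genes held a mean of 34.3% of the ovary sums and 27.1% of the testis sums, 108 were higher in ovary and 79 higher in testis, and rho between gonads was 0.711. Of the 187 genes picked without ovary 1, 178 (95.2%) reached 100 FPKM in ovary 1, and of the 182 picked without testis 1, 178 (97.8%) did so in testis 1. Of the genes picked without ovary 2, all 175 reached the floor in ovary 2. The picks without ovary 3, testis 2 and testis 3 lost 1 gene each in the library left out. The left-out library put the gene on the same side of the other gonad's mean as the remaining fish for 89.8% (ovary 1) to 95.0% (ovary 3) of genes. Both were set against the same mean, and no share over all genes was computed, so nothing is read from this agreement. The rho of the left-out library with the mean of the other fish of its gonad was 0.951 to 0.993. With the mean of the other gonad it was 0.628 to 0.733.

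In all, 16 genes missed the floor in a single library and met the rest of the rule, 9 of them in ovary 1 and 4 in testis 1. Of these, 7 stood at 90 FPKM or more in that library, 8 lay between 57.8 and 90 FPKM, and 1 was under 1 FPKM. The last was SCSFRI_TO_T_00125907, a 304 bp locus on linkage group 9 (14899750 to 14900053) inside the place with 5 members. It had 0.0766, 1035 and 1078 FPKM in ovaries 1, 2 and 3, and 596, 988 and 828 FPKM in testes 1, 2 and 3. All libraries but ovary 1 were thus far above the floor. As 5 genes overlap its span, its reads in ovary 1 may be listed under another model, and this was not tested. SCSFRI_TO_T_00085621 had 98.7, 408 and 328 FPKM in the ovaries and 351, 287 and 334 FPKM in the testes. SCSFRI_TO_T_00053462 on linkage group 6 (28304211 to 28305942) showed 165, 396 and 237 FPKM in the ovaries and 256, 57.8 and 157 FPKM in the testes, with its shortfall in testis 2.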

How the data were processed

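The authors deposited 1 table of FPKM values with a column per library. Per the submitters' processing notes, HISAT2 2.0.4 was used, and so was StringTie 1.3.3b, without order or settings; build, annotation and filters are not stated there. Columns that belong to no sample numbered 0. Depth is unknown, so no counting interval was computed, and genes listed at 0 may be failed estimates. Members and lists were chosen with earlier results of these data known. Named genes are the 5 members highest in each gonad, the 5 at each end of the ratio and the 3 most even. They also include the 3 steadiest, the 3 most variable, and up to 3 on each side of each limit. SCSFRI_TO_T_00125907, SCSFRI_TO_T_00053462 and SCSFRI_TO_T_00112419 were named after their values were seen. Lists by gene name were not used, since no identifier has a name. From the table, means, SDs, ratios, ranks and shares were computed with Python 3.11.15 and pandas 2.3.3. The fit across genes was limma 3.58.1 in R 4.3.3 (eBayes with trend, two-sided) on log2(FPKM + 1). It covered the 17206 genes that reached 1 FPKM in 3 or more libraries. A check of the fit on simulated data changed 200 genes. Far more, 14035, were called here, so the check does not cover a shift of most genes. Fold changes and ratios are ovary over testis. Median ratio scaling used genes above 0 in all 6 libraries. Alternatives were other limits, pseudocounts, filters and scalings, a replicate block and each library left out.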

Additional observations from a re-analysis of the deposited data

How the results depend on the processing

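Counts of members higher in ovary and testis (103 and 74) were 67 and 110 with TPM, 177 and 0 with median ratio scaling, and 49 and 128 after quantile normalization, with median log2 ratios of -0.33, 2.55 and -0.72 against 0.26; these scalings move all genes of a library, by construction. Median ratio scaling also raised the median SD of the ovaries to 0.637. Members called by limma higher in ovary (68) were 41, 171 and 26 on these 3 scales and higher in testis (50) 81, 0 and 106; over all genes, 2306 higher in ovary became 1410, 7020 and 5919, and 11729 higher in testis became 7433 with median ratio scaling, 6867 after quantile normalization and 5509 with a mean of at least 5 FPKM, and 12893 with TPM. The rule gave 177 members, 296 after TPM and 109 after median ratio scaling. A floor of 50 FPKM gave 365 members, 236 higher in ovary and 129 in testis, with shares of 36.3% in ovaries and 29.5% in testes. A floor of 200 FPKM gave 109 members, 57 higher in ovary, a testis share of 23.1% and rho of 0.485. No limit on the ratio gave shares of 38.0% and 42.0% and rho of 0.656, and limits of 0.2 and 5 gave 22.0% and 23.8%. Members free of overlap with any gene held 10.7% and 15.2%, with 63 higher in ovary and a median log2 ratio of 0.044; those free of overlap with another member, an alternative chosen after seeing the data, held 17.2% and 19.7%, with a median of 0.12. For these alternatives the cause was not tested beyond their construction. Leaving out 1 library gave shares of 27.5% to 36.5% in ovaries and 24.95% to 27.1% in testes, 98 to 113 members higher in ovary and 69 to 79 in testis, rho of 0.686 to 0.712, and median SDs of log2 FPKM of 0.09 to 0.21 in ovaries and 0.12 to 0.27 in testes.

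With the replicate block, limma called 2193 and 11607 genes, and 70 and 50 members, higher in ovary and testis. Same-numbered fish deviated with r of 0.009, -0.001 and -0.059 across genes. No pairing by number was seen, although such a check cannot exclude a shared batch. Of 442 alternative log2 fold changes of the 34 named genes, 19 kept their sign but were no longer past the threshold, and 10 kept it and came past. After quantile normalization, SCSFRI_TO_T_00000774 (1.15), SCSFRI_TO_T_00135691 (0.48) and SCSFRI_TO_T_00036146 (0.16) were among the 19. Another 22 changed sign, of which 8 were past the threshold neither before nor after. The values of the other 14 after quantile normalization were -0.79 for SCSFRI_TO_T_00039028, -0.85 for SCSFRI_TO_T_00038882, -1.51 for SCSFRI_TO_T_00138017 and -0.59 for SCSFRI_TO_T_00058931, which had -0.56 with TPM. After median ratio scaling they were 0.35 for SCSFRI_TO_T_00006614, 0.50 for SCSFRI_TO_T_00134784, 0.59 for SCSFRI_TO_T_00001619, 0.84 for SCSFRI_TO_T_00015903 and 0.82 for SCSFRI_TO_T_00084365. None of these was past the threshold in the new direction. The rest were 2.14 for SCSFRI_TO_T_00045379, 2.16 for SCSFRI_TO_T_00121257, 1.94 for SCSFRI_TO_T_00089828 and 1.72 for SCSFRI_TO_T_00085621.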
